A study of Homo sapiens with 17 samples.

Results

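Flag ChIP-seq peaks were examined around 10 genes of the AP-1 and YAP-TEAD systems in U2OS, a human osteosarcoma cell line. The genes were FOS, FOSL1, FOSL2, JUN, JUNB, YAP1, TEAD1, TEAD4, CCN1 and CCN2, out of 19970 protein-coding genes on chromosomes 1 to 22 and X. They were chosen by name, as genes with highly active enhancers in mesenchymal cell lines, and a peak belonged to a gene when its summit lay within 100 kb of the gene's RefSeq span. By this rule 228 peaks were found, of 208775 in the 8 lists. The cells were stable U2OS lines that carried a Tet-on construct for a Flag-tagged factor and had received doxycycline for 4 days, at 500 ng/ml by the treatment labels (the extraction protocol states another volume unit). The factors were FOXA1, FOXA2 and FOXA3, each at full length or without its CTD (labels FOXA1dCTD, FOXA2dCTD, FOXA3dCTD), SOX2 at full length, and a fusion of SOX2 with the FOXA2 CTD (SOX2FOXA2CTD). No label says whether a line was 1 clone. Each of these 8 groups had 2 biological replicates, which the authors combined into 1 list of peaks, so a difference between lists has no replicate check and no test was made. The depth of the libraries is not known from the files used here.

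AP-1 is a dimeric transcription factor made of a FOS-family and a JUN-family protein, and it binds the palindrome TGANTCA at enhancers. YAP1 is a coactivator without DNA binding of its own, held back by the Hippo kinases, and it reaches chromatin through TEAD proteins, which bind GGAATG. AP-1 and TEAD sites often lie side by side in the enhancers of adherent mesenchymal cells, and CCN1 and CCN2, secreted matrix proteins, are standard targets of both. FOXA proteins are forkhead pioneer factors with the core motif TGTTTAC, and SOX2 is an HMG-box pioneer factor.

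Sequence could be shown where a summit fell into a promoter window of RefSeq (build GRCh38.p14, 250 bases before a gene start to 50 after it). Of the 10 genes, 6 had such a window in the table, and only that of FOSL2 held a summit. Below, the FOSL2 window stands first because 4 lists placed a summit there. The windows of the antisense gene FOSL2-AS1, of JUN-DT beside JUN and of LINC01220 beside FOS follow, since each held a FOXA1 or FOXA2 summit within the range of a member gene. The windows of JUNB and CCN2 are shown because the first holds the forkhead core and the second TEAD sites, with no summit in any list. All run 5′ to 3′ along the named strand. Capitals mark matches, on either strand, to the forkhead core TGTTTAC, the AP-1 site TGANTCA, the TEAD site GGAATG or the SOX cores ACAATG and ACAAAG.
FOSL2 (chr2:28392608-28392907, plus strand): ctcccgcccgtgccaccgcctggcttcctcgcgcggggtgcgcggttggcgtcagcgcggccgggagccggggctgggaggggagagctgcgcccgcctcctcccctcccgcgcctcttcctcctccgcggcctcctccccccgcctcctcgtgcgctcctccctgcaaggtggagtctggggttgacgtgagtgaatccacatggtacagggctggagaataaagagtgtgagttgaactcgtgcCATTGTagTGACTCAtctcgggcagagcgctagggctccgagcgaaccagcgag
FOSL2-AS1 (chr2:28394623-28394922, minus strand): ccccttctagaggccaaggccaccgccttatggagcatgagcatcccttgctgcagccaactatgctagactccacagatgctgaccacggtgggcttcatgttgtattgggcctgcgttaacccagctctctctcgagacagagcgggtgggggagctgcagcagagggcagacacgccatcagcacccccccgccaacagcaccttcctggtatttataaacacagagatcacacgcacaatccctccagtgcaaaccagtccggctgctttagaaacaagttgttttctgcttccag
JUN-DT (chr1:58784901-58785200, plus strand): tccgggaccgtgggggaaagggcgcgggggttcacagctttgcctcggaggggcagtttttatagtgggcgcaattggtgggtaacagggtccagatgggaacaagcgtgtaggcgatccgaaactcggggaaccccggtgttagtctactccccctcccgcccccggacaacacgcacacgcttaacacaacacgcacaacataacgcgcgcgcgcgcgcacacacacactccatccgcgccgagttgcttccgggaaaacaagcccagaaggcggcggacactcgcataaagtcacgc
LINC01220 (chr14:75294154-75294453, plus strand): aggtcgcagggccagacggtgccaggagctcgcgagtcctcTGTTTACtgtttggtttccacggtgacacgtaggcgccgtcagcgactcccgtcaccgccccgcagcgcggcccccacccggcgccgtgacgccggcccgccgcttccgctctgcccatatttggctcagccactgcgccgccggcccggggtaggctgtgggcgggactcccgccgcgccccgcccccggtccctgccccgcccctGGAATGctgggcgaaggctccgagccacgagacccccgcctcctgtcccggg
JUNB (chr19:12791236-12791535, plus strand): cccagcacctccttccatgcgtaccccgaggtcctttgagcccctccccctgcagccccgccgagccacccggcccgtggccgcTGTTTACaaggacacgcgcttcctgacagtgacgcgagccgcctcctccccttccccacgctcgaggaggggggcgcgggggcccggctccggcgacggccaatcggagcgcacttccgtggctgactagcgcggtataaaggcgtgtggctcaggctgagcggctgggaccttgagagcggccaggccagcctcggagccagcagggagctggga
CCN2 (chr6:131951323-131951622, minus strand): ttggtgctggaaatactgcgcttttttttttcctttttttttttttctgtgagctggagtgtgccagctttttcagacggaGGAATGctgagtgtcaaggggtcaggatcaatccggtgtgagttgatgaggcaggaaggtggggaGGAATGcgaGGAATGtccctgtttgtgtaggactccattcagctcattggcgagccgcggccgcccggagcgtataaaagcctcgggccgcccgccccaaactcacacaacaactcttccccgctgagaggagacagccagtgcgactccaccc

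In the FOSL2 window the summits of FOXA1 full length and FOXA1 CTD-deleted lay at bases 183 and 206, that of FOXA2 CTD-deleted at base 239 and that of FOXA3 CTD-deleted at base 257. The window holds an AP-1 match, TGACTCA, from base 255 and a SOX core on the other strand from base 247, and no TGTTTAC. In the LINC01220 window the FOXA2 CTD-deleted summit was at base 12, TGTTTAC began at base 42 and a GGAATG at base 249. In JUN-DT the FOXA1 summits were at bases 180 (full length) and 233 (CTD-deleted), and none of the motifs searched occurs there. In FOSL2-AS1 the FOXA2 summits were at bases 146 (full length) and 245 (CTD-deleted), also with none of them. JUNB holds TGTTTAC from base 85, and CCN2 holds GGAATG from bases 82, 147 and 156. Of 34961 promoter windows of chromosomes 1 to 22 and X in the table, 3.42% hold TGTTTAC, 7.68% TGANTCA, 14.0% GGAATG and 24.4% a SOX core. The forkhead core stood in 9.44% of the 996 windows with a FOXA1 full-length summit and in 14.2% of the 268 with a FOXA1 CTD-deleted summit. For FOXA2 it was 11.6% of 713 windows at full length and 18.4% of 749 without the CTD. For FOXA3 it was 31.3% of 195 and 30.0% of 233. The fusion had 1.72% of 465 windows and SOX2 0 of 13. The windows of LOC105374382 near FOSL2 and GET3 near JUNB also held a FOXA summit, and those of MUS81 and DRAP1 near FOSL1 a summit of the fusion.

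Full-length FOXA1 had 43 peaks near the 10 genes and FOXA1 without its CTD 45. FOXA2 had 53 at full length and 61 without the CTD. The FOXA3 lists had 7 and 8, the SOX2-FOXA2 CTD fusion 11 and SOX2 none. For SOX2 this is 0 peaks of 1365 on chromosomes 1 to 22 and X, which allows a share of up to 0.220%. Only 103 SOX2 peaks lay in the windows of all protein-coding genes, 0.0496 per Mb, so a count of 0 near 10 genes says little. All 7 peaks of the FOXA3 full-length list are rows that the FOXA3 CTD-deleted list also holds, identical in position and in both p-values, as are 5012 of its 6130 rows. Without them no FOXA3 full-length peak remained near any of the 10 genes, so the FOXA3 lists are not 2 measurements here. Totals over the 8 lists count such rows in both FOXA3 lists, for the 10 genes and for all genes alike. The lists were also cut at different limits of the irreproducible discovery rate (IDR), the estimated share of peaks, down to a given rank, that do not replicate. These limits ran from 0.01 (FOXA3 CTD-deleted) to 0.920 (fusion).

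**Figure D1:**
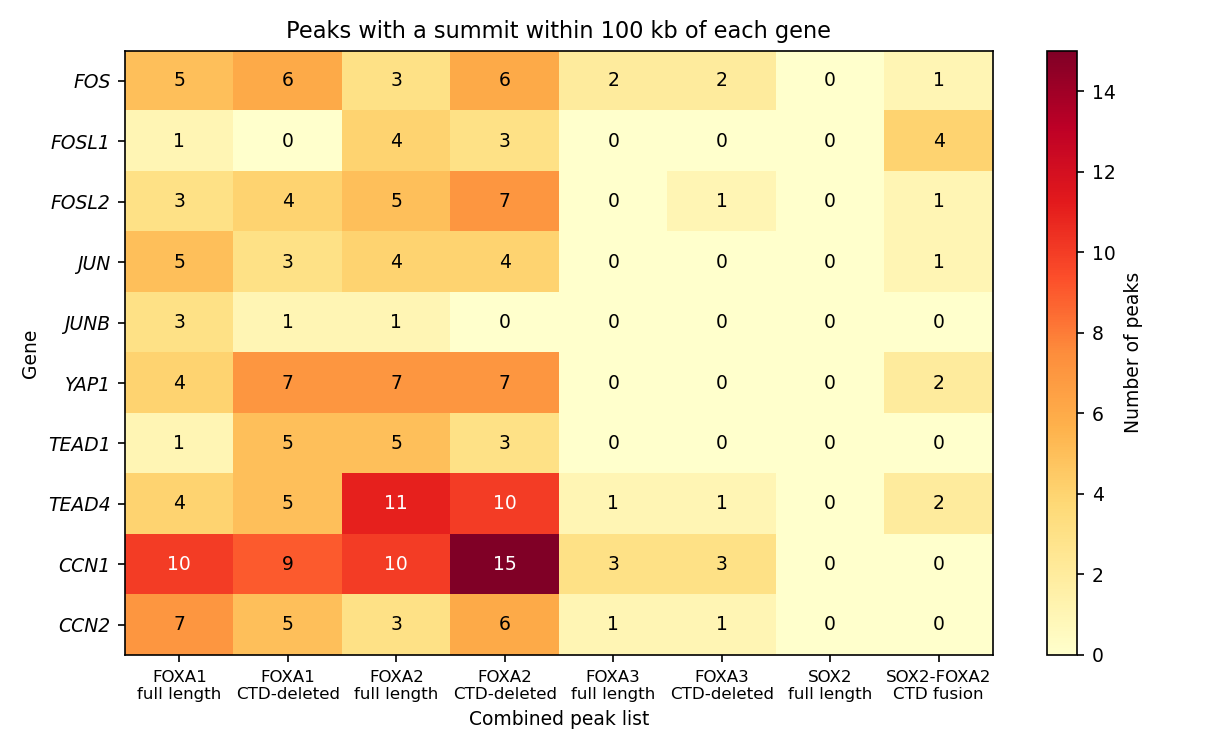
Number of peaks with a summit within 100 kb of each gene (rows) in each combined list (columns); colour and digit give the same count. CCN1 has 9 to 15 peaks in the FOXA1 and FOXA2 lists, and the SOX2 column is 0 throughout.

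Having a FOXA1 or FOXA2 peak within 100 kb did not set these genes apart. All 10 had one in the FOXA1 full-length list, where 83.4% of all protein-coding genes did, and 9 in the FOXA1 CTD-deleted list, against 82.2%. For FOXA2 the numbers were 10 at full length, against 85.0% of all genes, and 9 after CTD deletion, against 86.4%. FOXA3 reached 4 of the genes at full length, against 34.7% of all genes, and 5 without the CTD, against 38.9%. The fusion reached 6, against 35.5%, and SOX2 none, against 1.46%. The median member had 4 and 5 peaks in the FOXA1 lists and 4.5 and 6 in the FOXA2 lists, where the median of all protein-coding genes was 3 in each.

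Peaks per megabase make genes of different length comparable. In the windows of the 10 genes, 2.52 Mb in all, full-length FOXA1 had 17.0 peaks per Mb (exact Poisson 95% interval 12.3 to 23.0, counting error only), and the merged windows of all protein-coding genes had 13.1. FOXA1 without its CTD had 17.8 (13.0 to 23.9), against 16.5. FOXA2 had 21.0 (15.7 to 27.5) at full length, against 15.3, and 24.2 (18.5 to 31.1) after deletion, against 18.5. The 10 genes thus stood at 1.08 to 1.37 times the density of all gene windows in the FOXA1 and FOXA2 lists. Without CCN1 the ratio ran from 0.943 to 1.21, and the interval of each of the 4 lists included 1.00. The FOXA3 ratios were 1.44 (0.579 to 2.97) and 1.39 (0.601 to 2.74), and 0.895 and 0.946 without CCN1. The combined list of the fusion had no peak near CCN1, while the list of its first replicate alone had 6. The combined list had the highest ratio, 1.99 (0.992 to 3.56), and 2.16 (1.08 to 3.87) over the other 9 genes. These rest on 11 peaks, none of which remained at the stricter IDR limit of the SOX2 list.

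**Figure D2:**
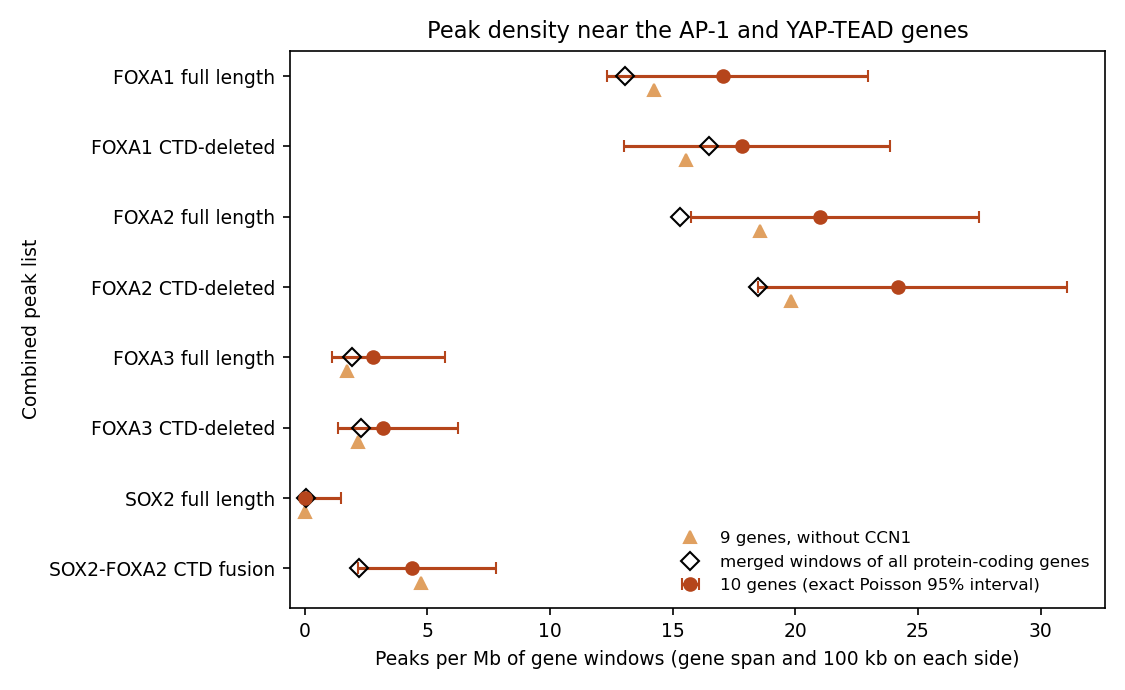
Peaks per Mb in the windows of the 10 genes (filled circles, exact Poisson 95% intervals), of the 9 genes other than CCN1 (triangles) and in the merged windows of all protein-coding genes (diamonds), for each combined list. Without CCN1, the values of both FOXA1 lists and of FOXA2 CTD-deleted lie within 2 peaks per Mb of the diamonds.

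The 5 AP-1 genes differed widely among themselves. FOS, whose protein is the inducible partner of JUN, had 25 peaks over the 8 lists, more than 76.4% of protein-coding genes. FOSL2, another FOS-family protein, had 21, and JUN 17. FOSL1, the FOS-family protein FRA-1, had 12 and JUNB 5, where the median of all genes was 13. FOSL1 and JUNB lie in gene-dense stretches, each with 14 other protein-coding genes in its window, while the FOS window holds no other. None of the 12 peaks near FOSL1 and none of the 5 near JUNB had the named gene as the nearest protein-coding gene, against 21 of 25 for FOS.

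FOS (chr14:75278828-75282230, plus strand) had 3 sites held by 4 or more lists. One lay 19.6 kb upstream (chr14:75258626-75259700, outside any annotated gene) and was held by all 6 FOXA lists, with summits within 209 bp. Its −log10 p in the 2 replicates was 5.08 and 11.9 for full-length FOXA1, and 3.62 and 13.8 for FOXA1 without its CTD. For FOXA2 the values were 1.92 and 3.62 at full length, and 6.16 and 10.7 after deletion. The row of both FOXA3 lists had 11.7 and 12.6. One replicate of full-length FOXA2 was thus the lowest of these values, which depend on the depth of each library. After CTD deletion of FOXA2 this was the strongest peak near FOS, at rank 5565 of 53415. The other site, 11.4 kb upstream (chr14:75266836-75267940), was absent from the FOXA1 full-length list and present in the other 5 FOXA lists. Its values were 5.86 and 8.41 for FOXA1 CTD-deleted, 5.08 and 3.62 for FOXA2 full length, 5.97 and 11.2 for FOXA2 CTD-deleted, and 7.90 and 15.3 for the FOXA3 row. A site 75.6 kb past FOS, held by both FOXA1 and both FOXA2 lists, was nearer to JDP2, another AP-1 gene. A summit inside FOS itself came only from the fusion, at rank 6812 of 7895.

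**Figure D3:**
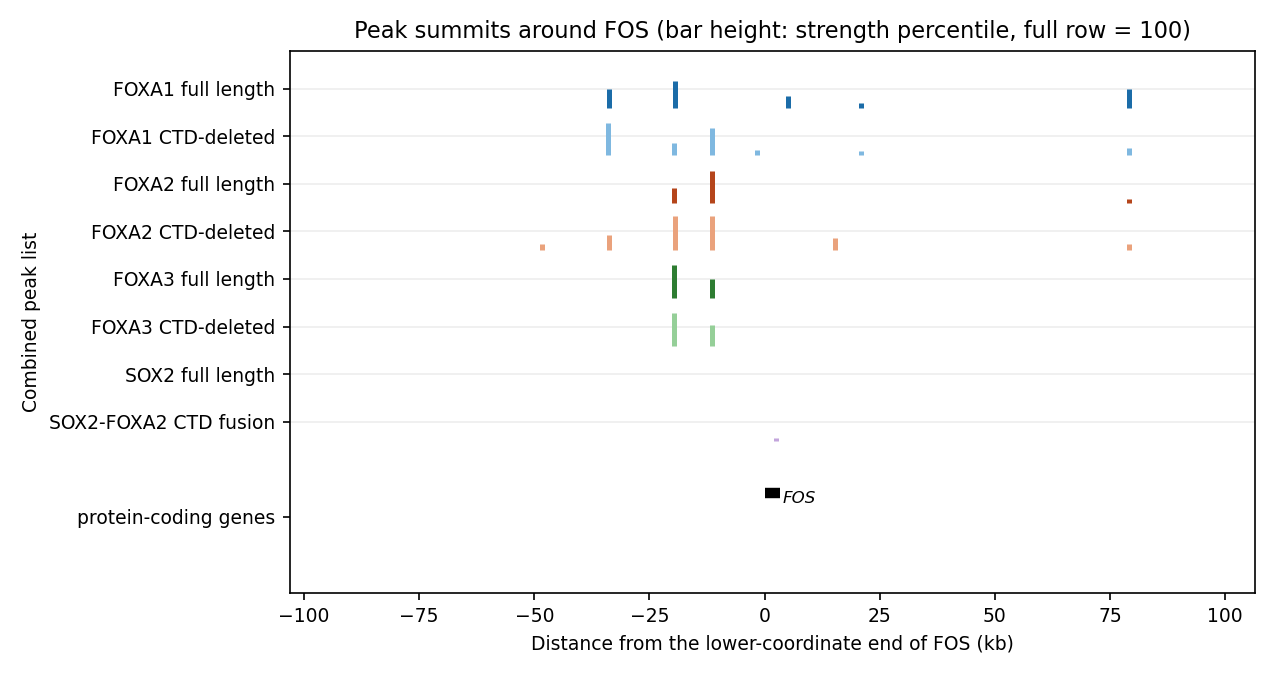
Summits within 100 kb of FOS by distance from its lower-coordinate end (kb), 1 row per combined list; the height of a bar is the strength percentile of the peak in its own list. The bars at −19.6 kb stand in all 6 FOXA rows and those at −11.4 kb in 5 of them.

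FOSL2 (chr2:28392858-28417317, plus strand) had peaks at its own start, as the promoter sequence above shows. Their ranks were low in 2 lists: 37371 of 37532 in the FOXA1 full-length list, with −log10 p of 2.44 and 15.7 in the 2 replicates, and 6320 of 6813 in the FOXA3 CTD-deleted list, with 5.61 and 11.3. FOXA1 without its CTD had rank 27540 of 50539 and FOXA2 without its CTD 16176 of 53415. The list of full-length FOXA2 had no summit in this window, and its nearest peaks lay 1.89 kb before the start and within the gene. The strongest peak near FOSL2 came from FOXA2 CTD-deleted, 33.5 kb before the start in LOC105374382, at rank 14437.

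JUN (chr1:58780791-58784047, minus strand), the main partner of the FOS proteins, had a site within the gene in 3 lists (chr1:58779632-58782508). The replicate values there were 5.30 and 4.48 for full-length FOXA1, 4.44 and 9.08 for FOXA1 CTD-deleted, and 6.19 and 3.59 for FOXA2 CTD-deleted. The strongest peak near JUN was 93.5 kb away in MYSM1 (chr1:58686905-58687789, FOXA1 full length), at rank 5027 of 37532 with 6.78 and 12.2. Near JUNB (chr19:12791486-12793315, plus strand) the only site found in more than 1 list lay 37.5 kb away over RTBDN. There the values were 7.35 and 7.55 for full-length FOXA1, 4.44 and 4.37 for FOXA1 CTD-deleted, and 2.27 and 5.99 for FOXA2 full length. Near FOSL1 (chr11:65892049-65900545) 8 of 10 sites were found in 1 list each. The strongest, 12.1 kb away beside C11orf68, was a FOXA2 CTD-deleted peak at rank 16306.

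The 3 genes of YAP1 and the TEADs had 9 peaks in the FOXA1 full-length list and 17 without the CTD, with 23 and 20 for FOXA2. TEAD4, 1 of the DNA-binding partners of YAP1, had 11 and 10 peaks in the FOXA2 lists, and 4 and 5 in the FOXA1 lists. TEAD1, another such partner, spans 270.3 kb and has the longest window, yet had 14 peaks in all. Its density over the 8 lists was 29.8 peaks per Mb, where the median of protein-coding genes was 55.0. YAP1 and TEAD4 were above that median, at 83.6 and 121 peaks per Mb.

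YAP1 (chr11:102110447-102233424, plus strand) had 15 of its 27 peaks within the gene. A site with summits 1505 to 1681 bp after its start (chr11:102111393-102113367) was held by both FOXA1 lists, both FOXA2 lists and the fusion. In the full-length FOXA1 list this was the strongest peak near any of the 10 genes, at rank 1971 of 37532. Its −log10 p was 12.5 and 9.11 in the 2 replicates. FOXA1 without its CTD had 6.95 and 10.2, FOXA2 had 5.63 and 3.23 at full length and 3.57 and 5.80 without the CTD, and the fusion 5.90 and 2.57. A separate FOXA2 full-length peak over the YAP1 start (chr11:102110083-102111380) had 3.02 in 1 replicate and 36.0 in the other. No other combined list held a peak that overlapped it. A site with summits 10269 to 10376 bp after the start was found in both FOXA2 lists and in FOXA1 CTD-deleted.

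TEAD1 (chr11:12674421-12944737) had its strongest peak outside the gene. At 87.7 kb past its upper end, near RASSF10, FOXA1 without its CTD had a peak with 15.9 and 15.7 in the 2 replicates (chr11:13032215-13032844), rank 665 of 50539. The same site was in the FOXA2 lists, with 3.02 and 7.00 at full length and 4.39 and 4.85 after deletion, and not in the FOXA1 full-length list. The single FOXA1 full-length peak near TEAD1 lay within the gene, at rank 26243. For TEAD4 (chr12:2959397-3040676), the strongest was likewise a FOXA1 CTD-deleted peak in a neighbour, TULP3, 63.8 kb away, with 10.2 and 11.2 and rank 2987. It overlapped peaks of both FOXA2 lists, and none of full-length FOXA1. Within TEAD4, near its lower end, a site was held by both FOXA2 lists and by the shared row of both FOXA3 lists, which had 8.88 and 9.16.

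CCN1 (chr1:85580761-85583950) had the most peaks of the 10 genes: 10 and 9 in the FOXA1 lists, 10 and 15 in the FOXA2 lists and the same 3 rows in both FOXA3 lists. Its total of 50 exceeded that of 95.3% of protein-coding genes, and its 246 peaks per Mb over the 8 lists exceeded 99.2% of them. For FOXA2 without its CTD, 96.2% of genes had fewer peaks. Of these 50 peaks, 17 had CCN1 as the nearest protein-coding gene. The others lay nearer to or within DDAH1, which degrades methylarginines, or ZNHIT6.

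Of the 23 sites around CCN1, 5 were held by 4 or more lists. One lay within the gene (chr1:85581655-85582870), with summits within 19 bp in 5 lists. Its replicate values were 7.27 and 21.3 for full-length FOXA1, 6.36 and 11.8 for FOXA1 CTD-deleted, 10.1 and 8.78 for FOXA2 CTD-deleted and 6.59 and 22.2 for the FOXA3 row, and full-length FOXA2 had no peak there. At a neighbouring site just past the upper end (chr1:85584072-85585316) both FOXA2 lists and both FOXA3 lists had a peak and full-length FOXA1 had none. FOXA1 CTD-deleted had 2 peaks there. The values were 10.9 and 17.0 for the stronger FOXA1 CTD-deleted peak, 3.84 and 5.99 for FOXA2 full length, 11.3 and 11.1 for FOXA2 CTD-deleted, and 7.75 and 25.4 for the FOXA3 row. All 6 FOXA lists held the site 34.0 kb past the upper end (chr1:85617431-85618269), with summits within 46 bp.

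The strongest peak of all 228 by percentile was that of FOXA2 CTD-deleted 45.9 kb past CCN1 (chr1:85629514-85630083), in the uncharacterised gene LOC107985057. It had −log10 p of 23.6 and 16.1 and rank 270 of 53415. FOXA2 at full length had 9.32 and 3.62 at this site, FOXA1 9.83 and 6.28 at full length, and 7.13 and 17.4 without the CTD, and neither FOXA3 list had a peak there. A site within DDAH1, 52.8 kb before CCN1, was also held by both FOXA1 lists and both FOXA2 lists, with summits within 24 bp.

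**Figure D4:**
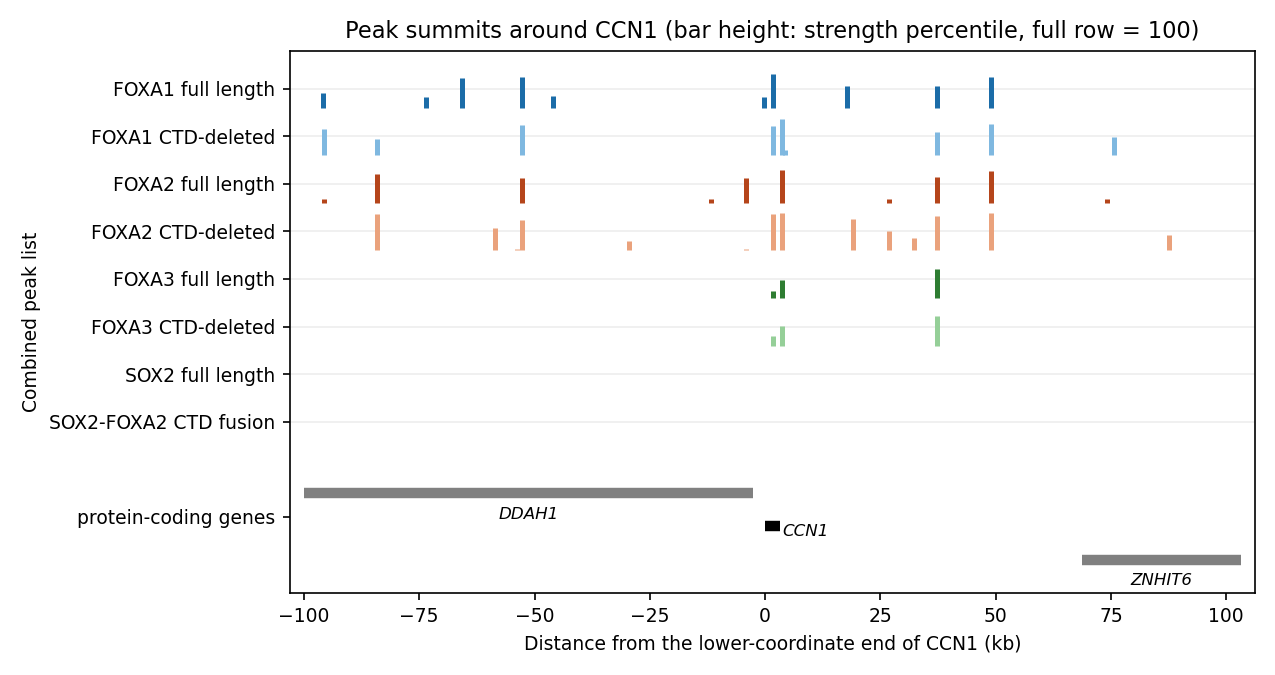
Summits within 100 kb of CCN1 by distance from its lower-coordinate end (kb), 1 row per combined list; the height of a bar is the strength percentile of the peak in its own list, and the lower tracks show protein-coding genes. Bars line up in the rows of FOXA1 and FOXA2 within DDAH1, at CCN1 and in the stretch before ZNHIT6.

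CCN2 (chr6:131948176-131951372, minus strand) had 23 peaks, and none lay within the gene or in its promoter window. A site within ENPP1, 84.1 kb away (chr6:131863672-131864611), was held by all 6 FOXA lists. The replicate values were 6.95 and 3.27 for full-length FOXA1, 3.53 and 6.33 for FOXA1 CTD-deleted, 4.71 and 3.23 for FOXA2 full length, 7.15 and 8.87 for FOXA2 CTD-deleted, and 9.42 and 9.08 for the FOXA3 row. Before the start of CCN2, which is on the minus strand, a site 29.7 kb from the gene was in both FOXA1 and both FOXA2 lists. It gave the strongest peak near CCN2, that of FOXA2 at full length with 6.59 and 5.95, rank 1937 of 45076.

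Ranks within a list need no scaling for depth, but they depend on where the list was cut, and the IDR limits of the lists differed. The median strength percentile, the share of the list's peaks that are weaker, (tied peaks share their mean) was 38.0 over the 43 peaks of full-length FOXA1 and 39.1 over the 45 after CTD deletion. It was 43.4 for FOXA2 full length and 56.1 for FOXA2 CTD-deleted, while the medians over all peaks in gene windows were 48.9 to 50.2 in these 4 lists. With windows of 250 kb the medians of these lists, in the same order, were 45.1, 49.8, 46.2 and 46.7. The value above 50 for FOXA2 CTD-deleted thus depended on the window, and no interval was given for any median. For FOXA3 the median within 100 kb was 65.4 and 60.2, over 7 and 8 peaks, against 49.5 and 47.4 in gene windows. For the fusion it was 29.5, against 40.9. In the strongest 10% of their list stood 1 and 3 peaks of the FOXA1 pair, 2 and 7 of the FOXA2 pair, and none of the others. Of the 7, CCN1 had 5. A peak of the strongest 10% lay within 100 kb of 1 of the 10 genes for full-length FOXA1, against 23.6% of all protein-coding genes, and of 3 for FOXA1 CTD-deleted, against 24.0%. For FOXA2 it was 2 genes, against 24.4%, and 3, against 30.3%. No member had one in the FOXA3 lists (against 3.72% and 3.91% of all genes), the SOX2 list (0.00501%) or the fusion list (0.756%).

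**Figure D5:**
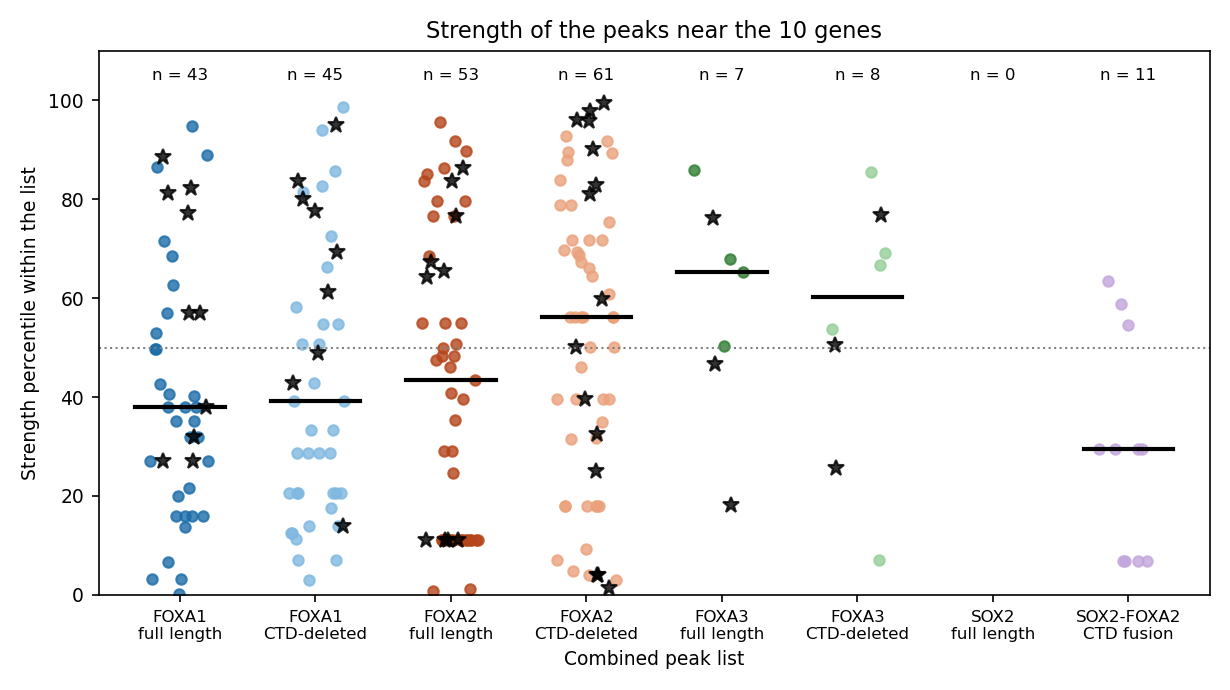
Strength percentile of each peak near the 10 genes within its own list (0 weakest, 100 strongest), with the median as a line; stars are peaks near CCN1. The medians of both FOXA1 lists (38.0 and 39.1), of FOXA2 full length (43.4) and of the fusion (29.5) lie under 50. That of FOXA2 CTD-deleted lies at 56.1.

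Between the lists of a pair, CTD deletion went with 45 against 43 peaks near the 10 genes for FOXA1, a ratio of 1.05 (exact 95% interval 0.674 to 1.63, counting error only). Over all gene windows this ratio was 1.26, within the interval. With the stricter IDR limit of the pair applied to both lists, 9 and 45 peaks remained, a ratio of 5.00, while the whole lists held 11548 and 50539. When the longer FOXA1 list was instead shortened by strength to the length of the other, 43 full-length and 29 CTD-deleted peaks remained. The size and direction of the FOXA1 difference thus depended on how the lists were cut. FOXA2 had a ratio of 1.15 (0.783 to 1.70), against 1.21 over gene windows, and 1.79 at the stricter limit, with 34 and 61 peaks. Shortened in the same way, the FOXA2 pair had 53 and 53. After CTD deletion of FOXA1 5 of the genes had more peaks, as did 40.5% of all protein-coding genes, and 5 had fewer, as did 33.3%. For FOXA2 4 had more, against 44.4%, and 4 had fewer, against 30.4%. For FOXA3 1 had more, against 8.87%, and 0 fewer, against 0.516%. The widest of these differences were TEAD1 in the FOXA1 lists (1 at full length, 5 after deletion) and CCN1 in the FOXA2 lists (10 and 15). The Poisson intervals of 1 (0.0253 to 5.57) and 5 (1.62 to 11.7) peaks overlap, and so do those of 10 (4.80 to 18.4) and 15 (8.40 to 24.7).

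Sharing between lists was measured as overlap of at least 1 bp. Of the 43 FOXA1 full-length peaks, 21 or 48.8% (Wilson 95% interval 34.6 to 63.2) overlapped a CTD-deleted peak, against 56.0% in the whole list. For FOXA2 it was 27 of 53, 50.9% (37.9 to 63.9), against 51.3%. Of the same FOXA1 peaks 37.2% (24.4 to 52.1) overlapped full-length FOXA2, against 47.2%. Each of these 3 intervals included the share of the whole list. Merging overlapping peaks gave 117 sites, of which 63 were found in 1 list and 9 in all of the 4 FOXA1 and FOXA2 lists. FOXA1 lists alone held 26 sites and FOXA2 lists alone 43, where the whole FOXA2 lists were also larger (45076 and 53415 peaks, against 37532 and 50539). All 8 sites with a FOXA3 peak also had a FOXA1 or FOXA2 peak. The share of the whole FOXA3 lists that overlapped any of those 4 lists was not counted. Of the 8 FOXA3 CTD-deleted peaks, 7 or 87.5% (52.9 to 97.8) overlapped FOXA1 CTD-deleted, against 69.2% of the whole list. All 8 (67.6 to 100) overlapped FOXA2 CTD-deleted, against 78.5%. Both intervals included the share of the whole list. Of the 228 peaks, 44 had their summit within 1 of the 10 genes, and 114 had that gene as their nearest protein-coding gene. These counts of sites and positions were not made over all genes, so they do not show a trait of the 10 genes. Exons and introns were not told apart, since the gene table gives only the ends of each gene.

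The fusion of SOX2 with the FOXA2 CTD had 4 peaks near FOSL1, 2 each near YAP1 and TEAD4, and 1 each near FOS, FOSL2 and JUN. FOSL1 thus had more fusion peaks than 96.8% of protein-coding genes in the combined list, none with FOSL1 as the nearest protein-coding gene. The list of the first fusion replicate alone had 3 near FOSL1, more than only 53.2% of genes. Set against SOX2, the fusion had more peaks at 6 of the 10 genes, against 35.1% of all genes, and fewer at 0, against 0.165%. Of these 11 peaks 5 overlapped a FOXA2 full-length peak, 45.5% (21.3 to 72.0), against 16.6% of the whole fusion list, and 2 overlapped FOXA2 CTD-deleted, 18.2% (5.14 to 47.7), against 17.0%. All 11 had an IDR above the limit of the SOX2 list, 0.100, so with that limit applied to both lists the fusion had 0 peaks, as SOX2 did. The share of the list near the 10 genes was 0.140% (0.0783 to 0.251) for the fusion.

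Further genes of both systems were counted in the same way. Of 12 other AP-1 genes, 10 had a FOXA1 full-length peak within 100 kb, where 83.4% of all protein-coding genes did, and 8 a FOXA1 CTD-deleted peak, against 82.2%. For FOXA2 the numbers were 12 at full length, against 85.0%, and 11 after CTD deletion, against 86.4%. Their median was 2.5 and 1.5 peaks in the FOXA1 lists and 4 and 4.5 in the FOXA2 lists, where that of all genes was 3 in each. The FOXA1 medians were thus below those of all genes and of the 10 members. Over the 8 lists the median total of these 12 genes was 17.5 peaks. The leaders were MAFK, a small MAF protein, with 56 peaks, 12 of them from the fusion, then ATF2 with 28 and ATF7 with 25. JUND had 1 peak in all lists together. Of 25 other genes of the YAP-TEAD and Hippo system, 22 had a FOXA1 full-length peak, against 83.4% of all genes, and 23 a FOXA1 CTD-deleted peak, against 82.2%. For FOXA2 it was 22, against 85.0%, and 21, against 86.4%. Their median was 4 peaks in each FOXA1 list and 6 and 7 in the FOXA2 lists, and their median total was 23. STK3, a Hippo kinase, had 75 peaks, WWTR1, which encodes the YAP1 paralogue TAZ, 64, and CRIM1 47. AMOT and VGLL1 had none. The median total of the 10 genes was 22 and that of all protein-coding genes 13. These totals are not corrected for gene length. Some windows also overlap, as those of FOS and JDP2 and of ATF3 and BATF3 do, so some peaks were counted for more than 1 gene.

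By the distance of log2(peaks + 1) over the 8 lists, the protein-coding genes with the profile most like that of CCN1 were TDRD15 (distance 0.330), EIF2AK2 (0.388) and CEBPZOS (0.405), all on chromosome 2. EIF2AK2 and CEBPZOS are neighbours and share part of their windows. TDRD15 had 10, 9, 9 and 12 peaks in the FOXA1 and FOXA2 lists, 3 in each FOXA3 list and 0 for SOX2 and the fusion.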

How the data were processed

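Peaks came from Flag ChIP-seq of U2OS cells, 8 factor groups of 2 replicates; the input sample had no peak list among the files used. Per the submitters' processing notes, hg38 was the build and Bowtie2 2.4.4, SAMtools 0.1.18 and MACS2 were among the tools; their settings, the control and the IDR limits are not given in the sources used here. Of 14 deposited lists 10 were used and 4 were copies. In the deposited combined lists the score encodes the IDR (125 for each halving), and the −log10 p of each replicate is given without a replicate number. Strength is the lower −log10 p of both replicates in the authors' lists. For SOX2 and the fusion the authors' list of the first replicate also gives a fold enrichment, a ratio to background, and a −log10 p. The 10 genes and the pathway lists were chosen with earlier results of these data known. Named by rule were the 10 genes, the strongest peak near each, the sites in most lists, the 3 genes with most peaks of each pathway list and the 3 genes most like the member with most peaks. Sequence at summits was planned and not read, as no genome was used here; promoter windows of RefSeq GRCh38.p14 replaced it. Of the windows that held a summit, 4 were printed, with 2 that held none. Counting was tested on simulated peaks. Intervals cover counting error at the 95% level. Python 3.11.15, pandas 2.3.3 and scipy 1.17.1 were used. Alternatives are listed in the closing section.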

Additional observations from a re-analysis of the deposited data

Results flagged for a closer look

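The lists of the first replicate alone, used above only for fusion peaks near CCN1 and FOSL1, held peaks near the 10 genes. For SOX2 there were 5, which is 0.0363% of the list (Wilson 95% interval 0.0155 to 0.0849). They lay near 4 of the 10 genes, FOSL2, YAP1, TEAD4 and CCN1, where 42.1% of all protein-coding genes had a peak, so the members were near the background share. That near CCN1 lay just past the gene, over the site held by 5 FOXA lists, with a fold enrichment of 3.31 and rank 7027 of 13977. For the fusion there were 40, or 0.0946% (0.0695 to 0.129), near 9 of the 10 genes, where 79.3% of all protein-coding genes had one. Of these, 6 lay near CCN1, which was more than 81.5% of genes had, and 3 near FOSL1. The strongest of the 40, at rank 5571 of 42705, was near CCN1, where the combined list had none. The fold enrichment of the 40 was 2.01 to 4.38, with a median of 3.01 against 3.06 in the whole list. No peak near FOS was in either list.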

How the results depend on the processing

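Values were recomputed for 26 results under 10 other settings, where each applied, and 1 more, and 159 of 198 stayed within 1.5 times (counts) or the 95% interval of the main value. Of 572 further values for single genes in single lists, 427 did. Part of these values stayed by construction. Leaving out CCN1 cannot change the count of another gene. A cut to the stricter limit or to equal numbers leaves 1 list of each pair whole. The numbers that stayed are thus no measure of how robust the results are. Lists are named in the order FOXA1, FOXA2, FOXA3, each at full length before CTD-deleted, then SOX2 and the fusion. Windows of 50 kb left 27 and 29 FOXA1 peaks. Windows of 250 kb gave 87, 106, 103, 130, 16 and 20 FOXA peaks and 20 fusion peaks, with 8 and 9 genes reached by FOXA3. An IDR of at most 0.01 left 2 and 22 FOXA1 peaks, 0 and 8 FOXA2 peaks and 0 fusion peaks. Genes reached were then 2 for FOXA1 full length, 0 and 4 for FOXA2 and 0 for the fusion, the FOXA1 full-length percentile was 25.2, and the FOXA1 ratio was 11. No FOXA2 full-length peak passes that limit by construction, since its best IDR score is 774. The stricter limit of a pair left 9 FOXA1 full-length peaks at 5 genes (ratio 5.00), 34 FOXA2 full-length peaks (ratio 1.79) and 0 fusion peaks at 0 genes. Equal numbers of the strongest peaks left 29 FOXA1 CTD-deleted peaks and 0 fusion peaks at 0 genes. Leaving shared rows out of FOXA3 full length left 0 peaks at 0 genes. The first replicate's lists gave 5 peaks at 4 genes for SOX2 and 40 for the fusion. Leaving out CCN1, a setting chosen after seeing the data, left 4 and 5 FOXA3 peaks. Apart from filters that remove peaks by construction, the cause was not tested. No paired analysis was possible because each group has 1 combined list and no test was made. Leaving out a replicate was possible only for SOX2 and the fusion, through the first replicate's lists. The motif shares around summits were not run, as no genome was used here.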
